A study of Mus musculus with 72 samples.

Results

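The interleukin-1 family was followed through the transcriptomes of 3 tissues of male mice, namely liver, pituitary and epididymal white adipose tissue (eWAT). Its 10 members here were Il1a, Il1b, Il1rn, Il1r1, Il1r2, Il1rl1, Il1rap, Il18, Il18bp and Il33, taken as the rows of the count table whose Ensembl identifiers carry these symbols. They are 10 of the 55416 genes counted. The rule itself uses no measured value.

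Interleukin-1 cytokines are early signals of inflammation. IL-1α (Il1a) and IL-1β (Il1b) bind the receptor IL-1R1 (Il1r1), which recruits the accessory protein IL-1RAP (Il1rap) and signals through MyD88 and the IRAK kinases to NF-κB. Several members hold the signal back: the receptor antagonist (Il1rn) occupies IL-1R1 without signalling, the decoy receptor (Il1r2) binds the ligand without signalling, and the IL-18 binding protein (Il18bp) captures interleukin-18 (Il18). Interleukin-33 (Il33) is released by stressed stromal and epithelial cells and acts through ST2 (Il1rl1), which also pairs with IL-1RAP and is carried by regulatory T cells, mast cells and type 2 innate lymphoid cells. In obese adipose tissue macrophages are a known source of interleukin-1 cytokines and of the antagonist.

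RNA was sequenced from 24 male FVB.129P2-Pde6b+ Tyrc-ch/AntJ mice in 3 tissues, which gave 72 libraries. FED mice were born to dams with free access to food, while the dams of CR20 mice had their food cut by 20% from embryonic day 15. Per the methods, the cut was relative to the intake of a paired FED dam on the day before, and it lasted through lactation until weaning. From 8 weeks of age the diet of the offspring held 10% fat in the CTRL groups and 45% fat in the HFD groups. The 4 groups, FED-CTRL, FED-HFD, CR20-CTRL and CR20-HFD, each held 6 different mice of the same strain. Pups of a dam were assigned blindly to the diets per the methods, and litters are not given in the sample labels used here. The tests between groups treat mice as independent, although the restriction was applied to dams. The results and figure legends of the study give 10 weeks of diet for these mice, while its methods and the sample labels allow 10 or 16 weeks. The 3 tissues of a mouse share its number.

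The libraries held 9842813 to 27601208 counts each (median 19705838.5). In CPM, a library's count scaled to its total, 3 counts corresponded to 0.109 to 0.305. The labelled tissues carried their own markers. The summed level of 6 hepatocyte markers was 67720 to 113639 CPM in the liver, and that of 7 pituitary hormone cell markers was 249712 to 366037 CPM in the pituitary. In the eWAT, the summed level of 6 adipocyte markers was 10763 CPM in FED-HFD mouse 23 and 12797 CPM in CR20-CTRL mouse 5, against 22820 to 32156 CPM in the other 22 mice. Mice 4 and 5 (CR20-CTRL) and mouse 6 (CR20-HFD) had 132, 62.1 and 26.5 CPM of 6 epididymis and testis markers, and the remaining eWAT libraries had at most 0.233 CPM. Mouse 23 also had the highest macrophage marker sum, 11356 CPM. Member calls, and counts of called genes in the lists, are therefore given for the eWAT also without these 4 mice.

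Levels were compared between genes and tissues as TPM, which scales counts by exon length and then to the same total in every library. In the eWAT the receptor Il1r1 had the highest median (20.0 TPM, range 15.4 to 54.9 over 24 mice), followed by Il33 (12.8), Il18bp (11.4), Il18 (11.3), Il1rn (4.48), Il1rl1 (2.47), Il1rap (1.06), Il1b (0.868), Il1r2 (0.867) and Il1a (0.302). Each of these neighbours overlapped in range. In the liver, Il1rap led with 43.7 TPM (36.5 to 60.4), above Il1r1 (20.7), Il18 (20.5) and Il18bp (17.0), and a gap without overlap separated Il18bp from Il1a (2.81). Il1b (2.5), Il1rn (1.31) and Il33 (0.58) were next in the liver, while Il1r2 (0.0359) and Il1rl1 (0) were near or at 0. In the pituitary the antagonist Il18bp led with 11.3 TPM (9.03 to 23.9) and did not overlap with Il18 (4.93). Il33 (3.74), Il1r2 (3.64) and Il1r1 (3.03) overlapped with each other there, followed by Il1rap (1.08) and Il1b (0.246). Il1a (0.0258 TPM), Il1rn (0) and Il1rl1 (0) were near or at 0 in the pituitary.

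**Figure D1:**
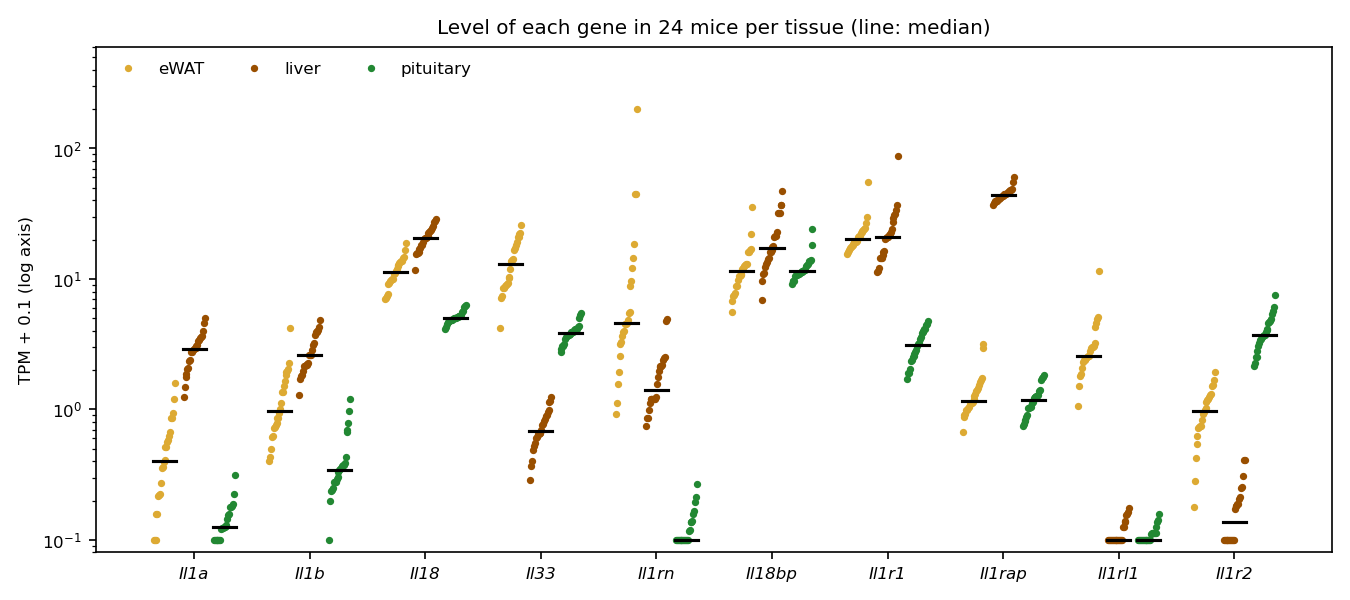
TPM plus 0.1 (log axis) of the 10 genes in eWAT, liver and pituitary, with 1 point for each of 24 mice and a line at the median. Il1rap stands highest in the liver (median 43.7 TPM), Il1rl1 is seen above the floor in the eWAT (median 2.47 TPM), and Il1r2 is highest in the pituitary (median 3.64 TPM).

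Most members differed between tissues. Of 30 differences between tissues (10 genes, 3 pairs), 26 passed an adjusted p-value of 0.05 in a two-sided permutation test of mean log2(TPM + 0.1) with 100000 resamples. Only the members were tested in this way, so no share of all genes can be set beside that count. Il1rl1, the interleukin-33 receptor, was higher in the eWAT than in the liver in 24 of 24 mice, by 4.63 on the log2(TPM + 0.1) scale, a value that depends on the pseudocount because the liver median was 0. Its highest count was 2 in a liver library and 5 in a pituitary library. Il33 was 4.18 higher in the eWAT than in the liver and 1.71 higher than in the pituitary, in 24 of 24 mice each. Il1rn was 1.93 higher in the eWAT than in the liver (22 of 24 mice) and 5.65 higher than in the pituitary (24 of 24). The ligands Il1a and Il1b were highest in the liver, which exceeded the eWAT by 2.86 and 1.31. The accessory receptor Il1rap was 5.12 higher in the liver than in the eWAT. The decoy receptor Il1r2 was highest in the pituitary, which exceeded the eWAT by 2.12 and the liver by 4.64. The sizes against a tissue near 0 depend on the pseudocount as well: Il1rn had 0 counts in 14 of 24 pituitary libraries and Il1r2 in 12 of 24 liver libraries, and with log2(TPM + 1) Il1rn was 2.87 higher in the eWAT than in the pituitary and Il1r2 2.15 higher in the pituitary than in the liver. Each of these differences had an adjusted p-value of 1.3e-05, which rests on the smallest p the resamples can give, except Il1rn between eWAT and liver (3.75e-05). The 4 differences that did not pass were Il1r1 between eWAT and liver (0.00), Il18bp (-0.04) and Il1rap (0.14) between eWAT and pituitary, and Il1rl1 between liver and pituitary (0.06). The test treats the tissues as separate mice. With the mouse number as a replicate block, 26 of 30 differences passed again. Scaling by TMM over all 72 libraries instead gave 28, of which 25 were shared. Under that scaling Il18, which was 1.13 higher in the eWAT than in the pituitary by TPM, turned to -0.14 and no longer passed. Of the 4 differences that had not passed, 3 then did, with lower levels in the eWAT: Il1r1 against the liver (-1.10), and Il18bp (-1.30) and Il1rap (-0.86) against the pituitary. The excess of the eWAT shrank to 0.83 for Il1rn over the liver and to 0.42 for Il33 over the pituitary, and both still passed. All of these values pool the 4 groups of mice. In the 6 FED-CTRL mice alone, Il1rn was 1.09 higher by TPM in the eWAT than in the liver, and 25 of 30 differences passed.

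The comparison of FED-HFD with FED-CTRL in the eWAT asks how the adipose tissue of normally nourished offspring responded to the diet. Of the 9 members tested (Il1a was too low), only Il1rn was called, with a higher level in FED-HFD. Calls in the eWAT and liver needed an adjusted p-value no higher than 0.055 and a log2 fold change (log2FC) of at least 1 in size, in edgeR's quasi-likelihood test. By this rule 4.18% of all 15964 genes were called higher. The median log2FC was 0.30 over the 9 members and 0.00 over all genes. In CR20-HFD vs FED-HFD, which compares the diet-fed offspring of restricted and normal dams, Il1rn and Il1rl1 were called lower, 2 of 9 members, against 4.78% of all genes. The member median there was -0.29 and that of all genes 0.02. These comparisons share the FED-HFD mice. In the same bulk libraries, fewer cells of a type and less RNA per cell cannot be told apart.

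**Figure D2:**
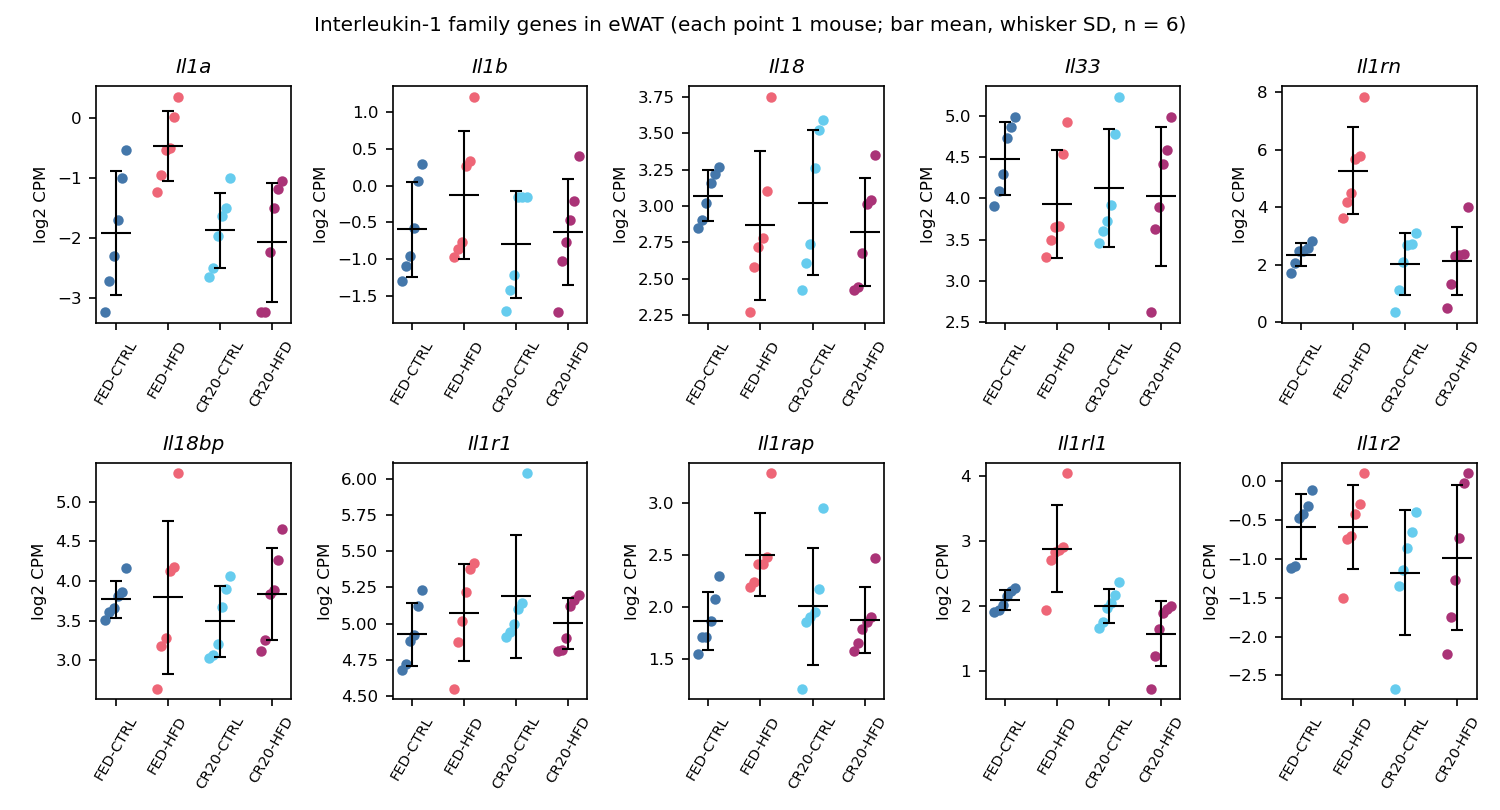
Log2 CPM (TMM-scaled, prior count 2) of the 10 genes in the eWAT by group, with 1 point per mouse and the mean and SD of 6 mice. The FED-HFD mice stand above the FED-CTRL mice for Il1rn without overlap, and 5 of 6 do so for Il1rl1, while the groups overlap for the other genes.

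No ligand was called in the eWAT. Il1b, the secreted interleukin-1, was at 0.304, 0.467 and 1.09 CPM (lowest, median and highest of 6 mice) in FED-CTRL and at 0.406, 0.781 and 2.38 CPM in FED-HFD. It was at 0.187, 0.552 and 0.949 CPM in CR20-CTRL and at 0.195, 0.540 and 1.21 CPM in CR20-HFD. All groups overlapped, and at 4 to 48 counts per library the estimates were wide. The diet gave a log2FC of 0.64 in FED mice (SE 0.473, adjusted p = 0.419), and CR20-HFD vs FED-HFD one of -0.67 (SE 0.480, adjusted p = 0.367). Il1a, the membrane-bound and intracellular form, had 0 to 13 counts in FED-CTRL, 6 to 18 in FED-HFD, 1 to 8 in CR20-CTRL and 0 to 7 in CR20-HFD. Without a filter on low counts, its log2FC was 1.54 (adjusted p = 0.26) and -1.80 (adjusted p = 0.155) in these comparisons. In log2 CPM, 4 of 6 FED-HFD mice stood above all FED-CTRL mice (two-sided exact permutation p = 0.0152), and 4 of 6 CR20-HFD mice stood below all FED-HFD mice (exact permutation p = 0.00649), values that are not adjusted over genes. Of the exon bases of Il1a, 13.7% lie opposite the antisense gene Gm14023, and the strand setting of the counting is not given in the sources used here.

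Il18, the ligand matured by caspase-1, was at 6.72, 8.32 and 9.37 CPM in FED-CTRL and at 4.71, 6.55 and 13.4 CPM in FED-HFD. It was at 4.91, 8.68 and 11.6 CPM in CR20-CTRL and at 5.24, 7.06 and 10.0 CPM in CR20-HFD. The groups overlapped throughout, with a log2FC of -0.13 (adjusted p = 0.774) for the diet response of FED mice, and of -0.08 (adjusted p = 0.846) for CR20-HFD vs FED-HFD. Il33, the alarmin of stromal cells, had medians of 22.6, 12.5, 15.2 and 17.6 CPM in FED-CTRL, FED-HFD, CR20-CTRL and CR20-HFD. In 4 of 6 FED-HFD mice Il33 lay below all FED-CTRL mice, and its log2FC of -0.47 (SE 0.363, adjusted p = 0.438) did not pass.

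The receptor antagonist gave the largest difference of the family. Il1rn (ENSMUSG00000026981) lies on the plus strand of GRCm39 at chr2:24226865-24241506. Its FED-HFD counts were 215, 421, 1110, 836, 5003 and 245 in mice 10, 11, 12, 13, 23 and 40, and its FED-CTRL counts were 69 to 143 (median 113.5). In CPM, Il1rn was at 3.11, 5.47 and 6.79 (lowest, median and highest) in FED-CTRL and at 12.4, 38.3 and 248 in FED-HFD. It was at 1.12, 5.19 and 10.3 CPM in CR20-CTRL and at 1.27, 4.79 and 16.0 CPM in CR20-HFD. Every FED-HFD mouse stood above every FED-CTRL mouse, whereas 5 of 6 CR20-HFD mice stood below every FED-HFD mouse. Il1rn rose 12.5-fold in FED-HFD vs FED-CTRL (log2FC 3.65, SE 0.659, adjusted p = 0.00297 in edgeR). It was 11.4-fold lower in CR20-HFD vs FED-HFD (log2FC -3.51, SE 0.658, adjusted p = 0.00125). Two-sided exact permutation tests over all divisions of the 12 mice gave 0.00216, the smallest p possible, and 0.00433. Mouse 23 enlarged these values: without it the log2FC of Il1rn was 2.62 (adjusted p = 0.00444) and -2.48 (adjusted p = 0.00356), and without CR20-HFD mouse 6 the second was -4.15 (adjusted p = 0.00128). The study reported both directions for Il1rn from these samples. It picked the gene on them for a check by quantitative PCR, which it states gave the same result.

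The upstream bases of the RefSeq-listed starts are shown for the called genes Il1rn and Il1rl1, because counts per gene do not tell their several starts apart. They cover the 250 bases before a start, come from the RefSeq promoter table (GRCm38.p6) and were placed on GRCm39 by an exact match. Capitals mark a match to AP-1 (TGANTCA), C/EBP (TTGCNNAA), PU.1 (GAGGAA), the TATA box (TATAAA) or kappaB (GGGANNTTCC), searched on both strands. The first listed start of Il1rn follows chr2:24226622-24226871 and the second follows chr2:24235053-24235302, both on the plus strand.
Il1rn, start 1: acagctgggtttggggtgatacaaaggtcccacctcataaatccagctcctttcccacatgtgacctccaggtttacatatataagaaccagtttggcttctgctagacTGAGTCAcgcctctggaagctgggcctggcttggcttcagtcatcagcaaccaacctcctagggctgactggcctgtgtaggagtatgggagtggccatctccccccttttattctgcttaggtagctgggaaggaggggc
Il1rn, start 2: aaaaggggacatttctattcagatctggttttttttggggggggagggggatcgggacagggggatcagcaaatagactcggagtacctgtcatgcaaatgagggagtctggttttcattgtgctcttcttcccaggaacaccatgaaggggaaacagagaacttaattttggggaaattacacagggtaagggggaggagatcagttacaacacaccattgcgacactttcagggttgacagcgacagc
The capitals at the first start are an AP-1 match at bases -141 to -135, a motif found in 6.73% of 32536 listed promoters. The second start, and a further listed start that follows chr2:24235133-24235382 and overlaps it, held none of the 5 motifs. A match is a run of letters and not a measured binding site. Over the 15 starts listed for the 10 members, kappaB matched 0 starts (1.21% of all promoters), AP-1 2, PU.1 1 (23.4%), C/EBP 4 (9.57%) and TATA 5 (12.3%).

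The antagonist was also set against its ligand. The ratio of Il1rn to Il1b TPM in the eWAT was 2.92, 3.49 and 8.54 (lowest, median and highest) in FED-CTRL and 7.77, 21.3 and 57.9 in FED-HFD. It was 2.07, 4.33 and 6.03 in CR20-CTRL and 1.81, 3.87 and 6.24 in CR20-HFD. The ratio rests on few Il1b counts and was not tested. The other antagonist, Il18bp, was not called. It was at 11.1, 12.7 and 17.5 CPM in FED-CTRL, 6.10, 13.8 and 41.0 in FED-HFD, 7.76, 11.7 and 15.8 in CR20-CTRL and 8.63, 14.5 and 24.6 in CR20-HFD. The log2FC of Il18bp was 0.30 (SE 0.342, adjusted p = 0.622) with the diet in FED mice, and -0.15 (SE 0.342, adjusted p = 0.813) when the HFD groups were compared. Of the Il18bp exon bases, 8.98% lie opposite Numa1.

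Among the receptors, Il1rl1 differed. Il1rl1 (ENSMUSG00000026069), which encodes the interleukin-33 receptor ST2 in a membrane and a soluble form, lies on the plus strand of GRCm39 at chr1:40468730-40504575. It was at 3.58, 4.05 and 4.56 CPM (lowest, median and highest) in FED-CTRL and at 3.75, 7.12 and 17.7 CPM in FED-HFD. It was at 2.89, 4.16 and 4.67 CPM in CR20-CTRL and at 1.56, 3.22 and 3.91 CPM in CR20-HFD. In FED-HFD, 5 of 6 mice stood above all FED-CTRL mice, and mouse 40 with 74 counts did not. Il1rl1 was 2.66-fold lower in CR20-HFD vs FED-HFD (log2FC -1.41, SE 0.262, adjusted p = 0.00121), with 4 of 6 CR20-HFD mice below every FED-HFD mouse (exact permutation p = 0.00649). The diet response of Il1rl1 in FED mice was a log2FC of 0.95 (1.93-fold, SE 0.257, adjusted p = 0.0198), short of the fold threshold (exact permutation p = 0.0108). At an adjusted p-value under 0.05 alone, both Il1rn and Il1rl1 passed in this comparison, where 7.81% of all genes passed in the higher direction. The same 2 members passed in CR20-HFD vs FED-HFD, where 10.0% of all genes passed in the lower direction. Without mouse 23 the log2FC of Il1rl1 was 0.61 (adjusted p = 0.0953) with the diet in FED mice, and -1.07 (adjusted p = 0.00239) for CR20-HFD vs FED-HFD. Without mice 11 or 40 it was 1.01 and 1.10, and the gene was called.

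The 2 listed starts of Il1rl1 are printed in the same way, since counts per gene add up transcripts from both. They follow chr1:40468480-40468729 and chr1:40478539-40478788 on the plus strand.
Il1rl1, start 1: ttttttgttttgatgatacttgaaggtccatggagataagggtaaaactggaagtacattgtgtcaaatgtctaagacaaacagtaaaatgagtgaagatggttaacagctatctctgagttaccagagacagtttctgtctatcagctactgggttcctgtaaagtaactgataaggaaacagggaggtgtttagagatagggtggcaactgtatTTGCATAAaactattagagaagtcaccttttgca
Il1rl1, start 2: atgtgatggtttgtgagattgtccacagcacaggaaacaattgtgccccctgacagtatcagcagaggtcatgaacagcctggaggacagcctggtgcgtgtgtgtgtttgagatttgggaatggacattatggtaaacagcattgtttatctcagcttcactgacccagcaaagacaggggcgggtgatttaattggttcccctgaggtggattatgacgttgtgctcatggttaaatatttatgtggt
The first holds a C/EBP match at bases -34 to -27, and the second none of the 5 motifs.

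The chains Il1rap and Il1r1, and the decoy Il1r2, were not called. Il1rap was at 2.65, 3.34 and 4.73 CPM in FED-CTRL, 4.44, 5.29 and 10.5 in FED-HFD, 2.06, 3.68 and 9.15 in CR20-CTRL and 2.85, 3.42 and 5.20 in CR20-HFD. In 4 of 6 FED-HFD mice Il1rap lay above all FED-CTRL mice, and 5 of 6 CR20-HFD mice lay below all FED-HFD mice. Its log2FC was 0.68 (SE 0.246, adjusted p = 0.0773) and -0.67 (SE 0.247, adjusted p = 0.0691), so neither passed in edgeR over all genes. For this gene alone, the two-sided exact permutation p was 0.00649 and 0.0108, not adjusted over genes. Of the Il1rap exon bases, 9.32% lie opposite Gm20319. The signalling receptor Il1r1 had medians of 29.6, 35.5, 32.0 and 31.3 CPM in FED-CTRL, FED-HFD, CR20-CTRL and CR20-HFD, with overlapping ranges. Its log2FC was 0.17 (SE 0.174, adjusted p = 0.573) and -0.10 (SE 0.175, adjusted p = 0.748). The decoy receptor Il1r2 was near its floor, with medians of 0.599, 0.58, 0.395 and 0.4 CPM. Its log2FC was 0.04 (SE 0.448, adjusted p = 0.969) and -0.29 (SE 0.461, adjusted p = 0.713), so no difference between these groups was detectable at 1 to 21 counts per library.

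**Figure D3:**
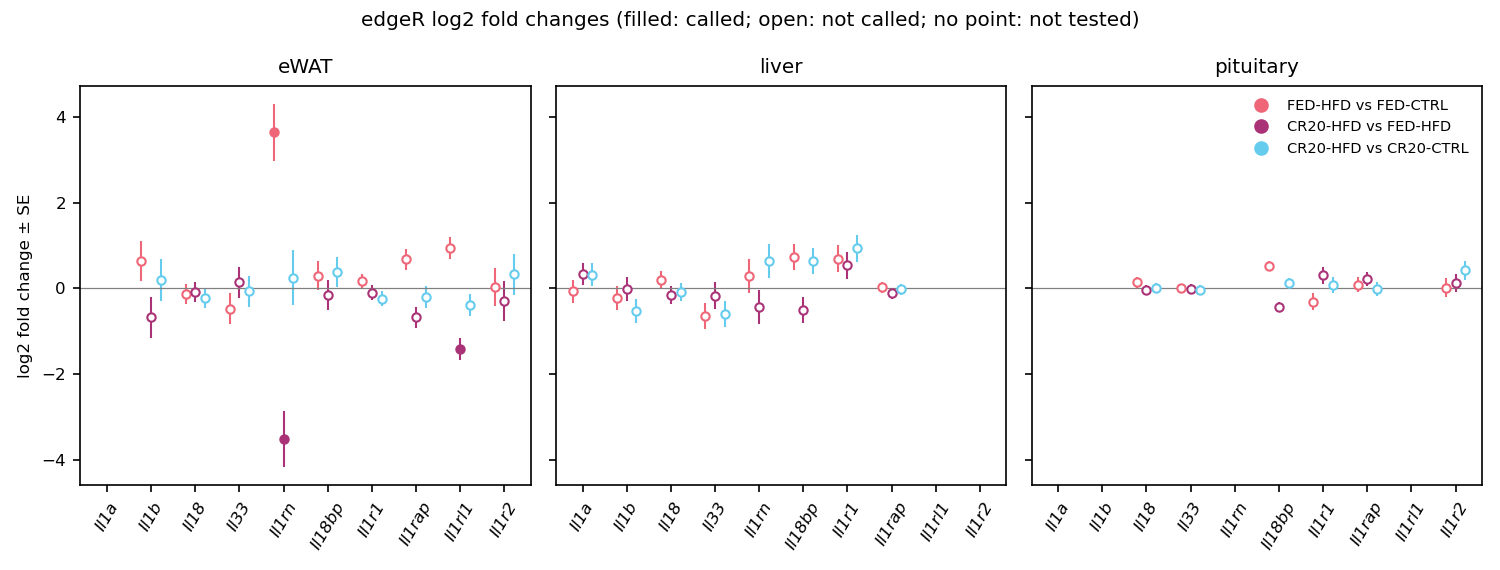
Log2FC with its SE (edgeR) of the members in the 3 tissues for the diet in FED mice (FED-HFD vs FED-CTRL), the HFD groups (CR20-HFD vs FED-HFD) and the diet in CR20 mice (CR20-HFD vs CR20-CTRL), filled where called and open where not. Il1rn stands at 3.65 and -3.51 and Il1rl1 at -1.41 in the eWAT, and no liver or pituitary value is filled.

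The diet did not move these genes past the threshold in offspring of restricted dams. In CR20-HFD vs CR20-CTRL, 0 of 9 members and 0% of all genes were called by edgeR in either direction. No member had an unadjusted p-value under 0.05, against 6.03% of all genes, and limma voom and DESeq2 also called 0 members. Il1rn had a log2FC of 0.25 (SE 0.641, adjusted p = 0.971) and Il1rl1 of -0.38 (SE 0.261, adjusted p = 0.93). On the control diet, CR20-CTRL vs FED-CTRL likewise gave 0 of 9 members and 0% of all genes in either direction. At an unadjusted p-value under 0.05 it had 0 members, against 7.39% of all genes, and limma voom and DESeq2 called none. There Il1rn had a log2FC of -0.12 (SE 0.637, adjusted p = 0.993) and Il1rl1 of -0.08 (SE 0.258, adjusted p = 0.993).

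The difference between both diet responses was tested as an interaction. It was called for Il1rn, with a log2FC of -3.40 (SE 0.899, adjusted p = 0.0466) for the response of CR20 minus that of FED mice, against 2.23% of all genes called lower. Il1rl1 narrowly missed at -1.33 (SE 0.367, adjusted p = 0.0551), and Il1rap was at -0.88 (SE 0.348, adjusted p = 0.189). The Il1rn interaction was near the threshold. It was called without mice 6, 10, 11, 33, 40 or 48, and lost when any 1 of the other 18 mice was left out (log2FC -3.50 to -2.35, adjusted p 0.0619 to 0.0997). It was also lost without mice 4, 5, 6 and 23 together (log2FC -2.55, adjusted p = 0.0754). With the range of mouse numbers as a covariate the calls traded places, Il1rl1 being called (-1.37, adjusted p = 0.0477) and Il1rn lost (-3.28, adjusted p = 0.0595). Without those 4 mice Il1rn was still called in FED-HFD vs FED-CTRL (2.62, adjusted p = 0.00165) and in CR20-HFD vs FED-HFD (-3.12, adjusted p = 0.000417), and Il1rl1 in the latter (-1.14, adjusted p = 0.00245).

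Macrophage markers moved with the same groups. The summed level of 12 macrophage markers in the eWAT was 1512, 1816 and 2174 CPM (lowest, median and highest) in FED-CTRL and 2267, 3599 and 11356 CPM in FED-HFD. It was 1123, 1920 and 2489 CPM in CR20-CTRL and 1279, 1632 and 2184 CPM in CR20-HFD. None of the 12 was at 0 in every library. Of the 12 markers, 5 were called higher in FED-HFD vs FED-CTRL, among them Cd68 (log2FC 2.11, adjusted p = 0.00297) and Trem2 (2.66, adjusted p = 0.00345), and 6 were called lower in CR20-HFD vs FED-HFD. Without mice 4, 5, 6 and 23, 3 markers and 5 markers were called in these comparisons. Complement gene C1qa, another macrophage marker, had a log2FC of 0.25 (adjusted p = 0.375) and -0.16 (adjusted p = 0.554). For the interaction, 5 of the 12 markers were called lower with all mice, and 0 without mice 4, 5, 6 and 23. That count was unstable to single mice of every group: it was 0 to 7 with 1 mouse left out, and 2 without mouse 23 alone. The sums of 5 dendritic cell markers were 27.8 to 43.9, 70.1 to 389, 10.1 to 74.4 and 14.1 to 39.4 CPM in the same order of groups. Hepatocyte markers were counted in the eWAT too, with sums of 60.7, 155 and 256 CPM in FED-CTRL, 4.37, 60.2 and 777 in FED-HFD, 121, 456 and 903 in CR20-CTRL and 93.8, 175 and 977 in CR20-HFD. These sums overlapped between all groups. Of the 5 hepatocyte markers tested, Apoa1 (log2FC 6.49, adjusted p = 0.0194) and Ttr (6.19, adjusted p = 0.024), which encode secreted transport proteins, were called higher in FED-HFD vs FED-CTRL. Both were called lower when CR20-HFD was compared with FED-HFD, where Cyp2e1, a cytochrome P450 enzyme, was called higher, and in the interaction Apoa1 and Ttr were called lower. Leaving out mice 4, 5, 6 and 23 gave 3 higher hepatocyte markers for the diet in FED mice (Alb, Apoa1 and Ttr). Between the HFD groups the same 3 were then called lower and Cyp2e1 higher. The interaction then had 0 called hepatocyte markers. These counts also depended on single mice. Mouse 10 held 777 CPM of hepatocyte markers, against 4.37 to 162 CPM in the remaining FED-HFD mice. Leaving out mouse 10 alone left 1 marker for the diet in FED mice and 1 between the HFD groups. For the diet in FED mice, 1 was also left without mouse 41 or 42, and 4 were called without mouse 40. The interaction had 0 to 4 with 1 mouse left out. The part of hepatocyte RNA in the member values was not tested.

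Divided by the macrophage sum, Il1rn was at 2.05, 2.75 and 3.36 CPM per 1000 marker CPM in FED-CTRL and at 3.89, 11.5 and 21.9 in FED-HFD. It was at 0.656, 2.46 and 4.82 in CR20-CTRL and at 0.992, 2.56 and 8.50 in CR20-HFD. Every FED-HFD mouse stood above every FED-CTRL mouse on this scale as well. Il1rl1 per 1000 marker CPM had medians of 2.25, 1.84, 1.97 and 1.79 with overlapping ranges. Markers of cell types known to carry ST2 were summed as well. The median sums of 3 regulatory T cell markers were 8.17, 8.06, 7.22 and 5.70 CPM in FED-CTRL, FED-HFD, CR20-CTRL and CR20-HFD. Those of 7 mast cell markers were 31.5, 22.2, 31.9 and 23.9 CPM, and those of 5 type 2 innate lymphoid cell markers 2.23, 1.59, 2.36 and 1.54 CPM. The part of these cells in the differences of Il1rn and Il1rl1 was not tested.

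**Figure D4:**
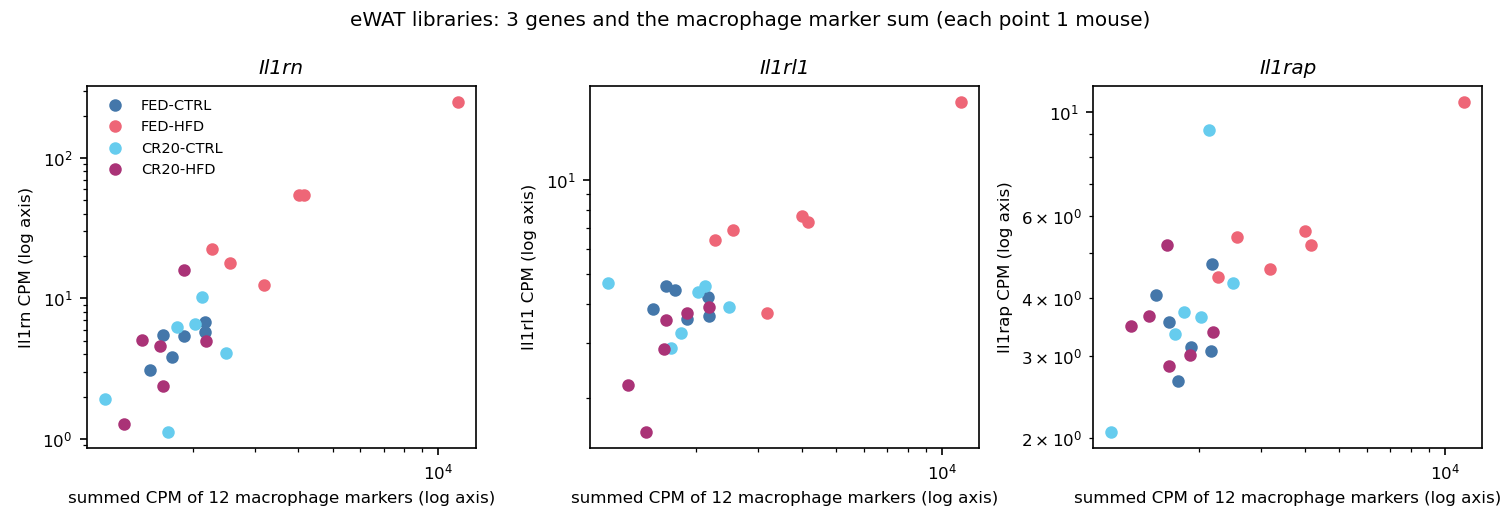
CPM of Il1rn, Il1rl1 and Il1rap (log axes) against the summed CPM of 12 macrophage markers in the 24 eWAT libraries, coloured by group. FED-HFD mouse 23 lies at the far end (11356 CPM of markers, 248 CPM of Il1rn), and the other FED-HFD mice lie above the FED-CTRL mice for Il1rn.

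The genes whose eWAT pattern was most like that of a member, by Pearson's r of the log2 CPM deviations from group means over the 24 libraries, are given as a description. For Il1rn they were Gm20056 (r = 0.96), Lcp1 (0.95), an actin-bundling protein of leukocytes, and Cd68 (0.95), a lysosomal protein of macrophages. For Il1rl1 they were Wdr26 (0.88), Rassf8 (0.83) and Desi2 (0.83). Il18bp was most like Xaf1 (0.94), Zbp1 (0.93) and Gbp6 (0.93), which are known as interferon-induced genes. Il18 was most like Serping1 (0.85), C1s1 (0.85) and C1ra (0.82), 3 genes of the classical complement pathway. Il33 was most like Sema3a (0.94), Col4a6 (0.94) and Fam180a (0.93). The leading gene was U2af2 for Il1b (0.80), Lpin2 for Il1r1 (0.84), Lsp1 for Il1r2 (0.73) and Acot11 for Il1rap (0.84). Marker sums of cell types differed between these libraries, with mouse 23 at the extreme of the macrophage and adipocyte sums, and this difference was not removed from r.

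Other genes of the pathway were taken from 4 lists. Of 10 genes of the inflammasome and of interleukin-1 processing, 9 were tested in the eWAT, and 4 were called higher in FED-HFD vs FED-CTRL. They were P2rx7, the ATP-gated channel that triggers the NLRP3 inflammasome (log2FC 1.11, adjusted p = 0.00559), the sensors Aim2 (1.12, adjusted p = 0.0132) and Nlrc4 (1.07, adjusted p = 0.0214), and the adaptor Pycard (1.03, adjusted p = 0.0185). Casp1, the protease that matures interleukin-1β and interleukin-18, was at 0.92 (adjusted p = 0.00827), short of the fold threshold. The median of the 9 genes was 0.92 against 0.00 over all genes. In CR20-HFD vs FED-HFD, 6 of 9 were called lower, with a median of -1.17 against 0.02. These were Casp1 (-1.17, adjusted p = 0.00118), P2rx7 (-1.31, adjusted p = 0.00121), Nlrc4 (-1.35, adjusted p = 0.00411), Aim2 (-1.21, adjusted p = 0.00616), Pycard (-1.07, adjusted p = 0.0117) and Nlrp3 (-1.27, adjusted p = 0.0179). In the interaction only P2rx7 of the 9 was called (-1.46, adjusted p = 0.0341). These calls rested largely on mouse 23: without it 0 of 9 were called in FED-HFD vs FED-CTRL (median 0.68) and only P2rx7 in CR20-HFD vs FED-HFD (-1.01, adjusted p = 0.00206, median of the 9 -0.80). Without mice 4, 5, 6 and 23 the counts were 0 and 2 (Casp1 and P2rx7), and 0 in the interaction. With 1 mouse left out, 0 to 4 of the 9 were called in the interaction. The macrophage marker sums given above moved with these genes.

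The signalling chain and the rest of the family gave no calls, with all mice or without those 4. Of 17 signal transduction genes, 0 were called in either comparison, with medians of 0.03 and -0.10. The most abundant of them were Rela, a subunit of NF-κB (-0.08 and 0.05), Irak1, the kinase recruited by MyD88 (-0.06 and -0.03), Nfkbia, the inhibitor of NF-κB (0.18 and 0.11), and Tollip, an inhibitor of IRAK1 (0.02 and -0.10). Myd88, the adaptor of the receptors, had a log2FC of 0.44 (adjusted p = 0.0104) and -0.34 (adjusted p = 0.0335), under the fold threshold, as was Irak3, an inhibitory kinase of the family, at 0.29 (adjusted p = 0.0195) and -0.21 (adjusted p = 0.0626). Of 11 other family members, 4 were tested and 0 called. They were Il1rl2 (0.48 and -0.50), Il18r1 (0.13 and -0.10), Il18rap (0.29 and -0.39) and Sigirr (-0.17 and 0.50). Of 12 genes known to respond to interleukin-1, 11 were tested. Ccl2, a monocyte chemoattractant, was called higher in FED-HFD vs FED-CTRL (1.23, adjusted p = 0.00817), and Saa3, an acute phase protein, lower in CR20-HFD vs FED-HFD (-1.30, adjusted p = 0.0378). Without mice 4, 5, 6 and 23 Ccl2 was still called, and Saa3 was not (-1.17, adjusted p = 0.0997). Without mouse 7, 10, 13, 23 or 46 alone, CR20-HFD vs FED-HFD called 0 of the 11. The medians of the 11 were 0.71 and -0.51.

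**Figure D5:**
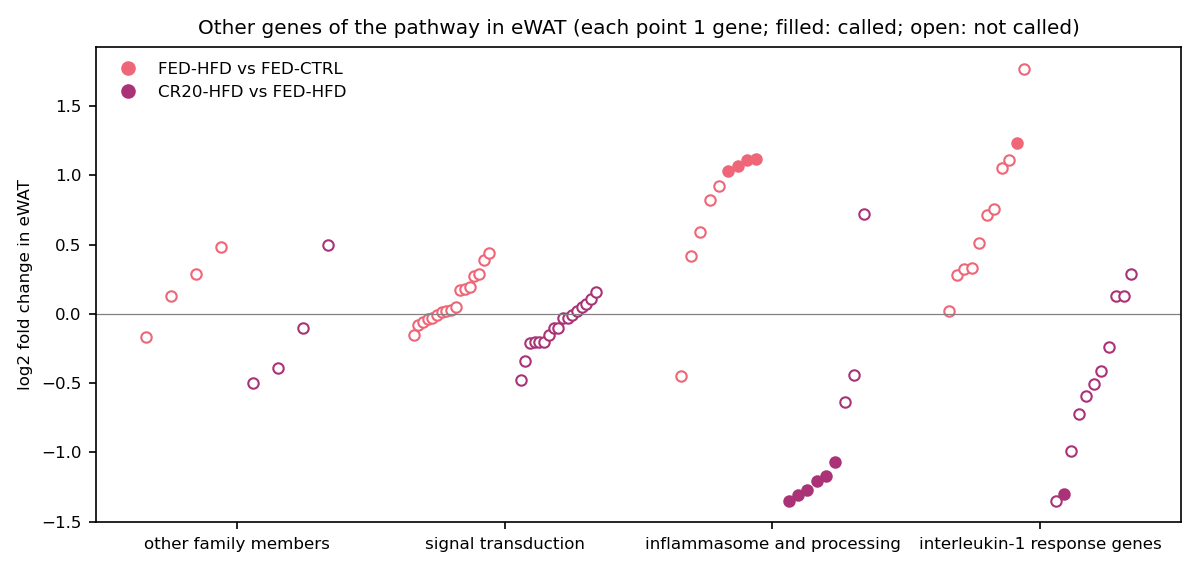
Log2FC in the eWAT of the tested genes of 4 lists for the comparisons FED-HFD vs FED-CTRL (red) and CR20-HFD vs FED-HFD (purple), 1 point per gene, filled where called. The inflammasome list has 4 and 6 filled points, the response genes 1 and 1, and the signal transduction genes and other family members none.

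In the liver, 8 members were tested (not Il1r2 and Il1rl1), and 0 were called in FED-HFD vs FED-CTRL, where 0.0218% of the 13787 genes were called higher and 0.0725% lower. By unadjusted p-value 3 of 8 were under 0.05, against 6.66% of all genes, and limma voom and DESeq2 called 0. Il18bp was at 18.0, 26.5 and 30.6 CPM in FED-CTRL and at 14.3, 45.4 and 69.3 CPM in FED-HFD, with 4 of 6 FED-HFD mice above all FED-CTRL mice (log2FC 0.73, SE 0.301, adjusted p = 0.614). Il1r1 was at 21.8, 28.6 and 40.3 CPM in FED-CTRL and at 29.4, 48.1 and 67.2 CPM in FED-HFD, again with 4 of 6 mice above (log2FC 0.70, SE 0.315, adjusted p = 0.696). Il33 was at 0.698, 1.65 and 2.03 CPM in FED-CTRL and at 0.506, 1.00 and 1.39 CPM in FED-HFD (log2FC -0.65, SE 0.307, adjusted p = 0.733).

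In the liver of CR20-HFD vs CR20-CTRL, 0 of 8 members were called, against 0.0798% of genes higher and 0.297% lower. Unadjusted p-values were under 0.05 for 2 members, against 9.57% of all genes, and limma voom and DESeq2 called 0. Il1r1 was at 23.7, 31.9 and 60.6 CPM in CR20-CTRL and at 41.4, 58.1 and 181 CPM in CR20-HFD (log2FC 0.94, SE 0.315, adjusted p = 0.275). The value of 181 CPM, from 3088 counts, belonged to mouse 7. Il18bp was at 10.2, 18.6 and 27.0 CPM and at 16.0, 26.9 and 52.0 CPM in the same groups (log2FC 0.65, SE 0.302, adjusted p = 0.509). The other liver comparisons and the interaction gave 0 members and 0% of genes. There 0 members had an unadjusted p-value under 0.05. The share of all genes was 3.58% in CR20-HFD vs FED-HFD, 2.17% in CR20-CTRL vs FED-CTRL and 1.76% in the interaction. The most abundant liver member, Il1rap, had overlapping ranges in all groups, with medians of 192, 205, 194 and 187 CPM in FED-CTRL, FED-HFD, CR20-CTRL and CR20-HFD. None of the pathway genes was called in the liver or the pituitary.

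In the pituitary, 6 members were tested (not Il1a, Il1b, Il1rn and Il1rl1), and a gene was called at an adjusted p-value under 0.05. No member was called in any comparison, and 0% of the 16657 genes were. In FED-HFD vs FED-CTRL 9.64% of all genes had an unadjusted p-value under 0.05, and so did 1 of 6 members, Il18bp. It was at 26, 27.9 and 29.5 CPM in FED-CTRL and at 28.9, 37.5 and 57.7 CPM in FED-HFD, with 5 of 6 FED-HFD mice above all FED-CTRL mice (log2FC 0.52, SE 0.122, adjusted p = 0.155). DESeq2 called Il18bp here, limma voom did not. In CR20-CTRL and CR20-HFD it was at 23.4, 27.0 and 31.1 CPM and at 24.7, 28.7 and 34.4 CPM. Its log2FC was -0.43 (SE 0.122, adjusted p = 0.416) for CR20-HFD vs FED-HFD and -0.40 (adjusted p = 0.414) in the interaction, each the 1 member under an unadjusted 0.05. Of all genes, 6.77% and 11.0% were under it there. Both CR20-HFD vs CR20-CTRL and CR20-CTRL vs FED-CTRL had 0 such members, against 7.28% and 17.3% of all genes, and no other tool called any member. Median macrophage marker sums in the pituitary were 214, 268, 197 and 236 CPM in FED-CTRL, FED-HFD, CR20-CTRL and CR20-HFD, and their part in the Il18bp values was not tested.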

How the data were processed

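RNA of 72 libraries (24 mice, 3 tissues) was analysed. Per the methods and the submitters' processing notes, the authors trimmed the reads with Trimmomatic, aligned them with STAR to GRCm39 and counted them per Ensembl gene with featureCounts (Subread), and they deposited whole-number counts without normalization. Depth was 9842813 to 27601208 counts per library, and floors cover counting error only. Liver RNA was extracted by another method than eWAT and pituitary RNA, so tissue and extraction cannot be told apart. Groups and mouse numbers came from the labels. Names, exon lengths and overlaps came from GENCODE M39 on GRCm39 (54749 of 55416 identifiers matched), which may differ from the release the authors counted with. CPM was computed on total counts and TPM on exon length.

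Each tissue was fitted with edgeR 4.0.16 in R 4.3.3 over its 24 libraries with a mean per group (filterByExpr, TMM, glmQLFit and glmQLFTest). P-values are two-sided and adjusted over all genes tested by the Benjamini-Hochberg method. SEs are the log2FC divided by the square root of F. The test between tissues was adjusted over 30 differences. Alternatives used limma 3.58.1 (voom with quality weights as in the methods, and without), DESeq2 1.42.0, other scalings, filters, thresholds and samples, and each mouse left out. All fits and permutation tests were tested on simulated data. The members and gene lists were chosen with earlier results of these data known. Named genes were all members, up to 4 called genes per pathway list with the smallest p in the eWAT (or the most abundant where none was called), and the 3 genes most like each member. Pycard, Nlrp3, Myd88, Irak3, Cd68, Trem2 and C1qa were named after their values were seen. Quantitative PCR, serum and weight data were not analysed here.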

Additional observations from a re-analysis of the deposited data

Results flagged for a closer look

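In 92 groups of 6 mice with values of a tested member, 7 held a mouse whose gap to the next, as a share of the group's range, exceeded Dixon's 95% critical value, where chance gives about 1 in 20. All values are log2 CPM. Il1r1 was high in the eWAT of CR20-CTRL mouse 5 (6.04, next 5.14), whose adipocyte marker sum was 12797 CPM and which carried epididymis markers, and in the liver of CR20-HFD mouse 7 (7.44, next 6.08). Il1rap was high in the eWAT of FED-HFD mouse 23 (3.29, next 2.48), the mouse with the highest macrophage sum, and in the eWAT of CR20-HFD mouse 46 (2.47, next 1.90). It was also high in the liver of CR20-HFD mouse 32 (8.09, next 7.59) and in the pituitary of FED-CTRL mouse 42 (3.54, next 2.81). Il18 was low in the pituitary of CR20-HFD mouse 31 (2.69, next 2.96). Il1rn in the eWAT differed in its diet response between CR20 and FED mice by a log2FC of -3.40, by the interaction term.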

How the results depend on the processing

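Every alternative kept Il1rn called in FED-HFD vs FED-CTRL (log2FC 2.62 to 3.86 with a mouse left out, 2.62 to 3.67 otherwise) and in CR20-HFD vs FED-HFD (-4.15 to -2.48 and -3.54 to -2.99), and Il1rl1 in the latter (-1.56 to -1.07 and -1.47 to -1.11). In FED-HFD vs FED-CTRL, 2 members instead of 1 passed with the limits of 0.055 for the adjusted p-value and 0.58 for the log2FC, and with 0.05 and no minimum log2FC, and 1 to 2 with a mouse left out. In the eWAT interaction 1 member was called, but 0 by limma voom with or without quality weights and without mice 4, 5, 6 and 23 (an alternative chosen after seeing the data), 2 by DESeq2, with DESeq2 size factors and with a filter of over 1 CPM, and 0 to 2 with a mouse left out. The Il1rn interaction was lost in voom with quality weights (-2.34, adjusted p = 0.173), voom without (-2.91, adjusted p = 0.21) and with the range of mouse numbers as a covariate (-3.28, adjusted p = 0.0595), and ranged from -4.03 to -2.35 with a mouse left out. In the pituitary, FED-HFD vs FED-CTRL gave 1 member, Il18bp, by DESeq2 and without a filter, and 0 to 1 with a mouse left out (1 without FED-HFD mouse 11). The causes were not tested.

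Small values turned in sign. With a mouse left out, the eWAT log2FC in FED-HFD vs FED-CTRL ranged from -0.17 to 0.20 for Il1r2 and from -0.19 to 0.47 for Il18bp. In CR20-HFD vs FED-HFD it ranged from -0.34 to 0.35 for Il18bp, -0.21 to 0.15 for Il18 and -0.08 to 0.41 for Il33. For Il1rn it ranged from -0.39 to 0.47 in CR20-HFD vs CR20-CTRL and from -0.36 to 0.08 in CR20-CTRL vs FED-CTRL. In voom with quality weights the diet log2FC in FED mice was -0.32 for Il1r2 and -0.08 for Il18bp, and the log2FC between HFD groups was 0.08 for Il1r1, 0.12 for Il18bp and 0.10 for Il18. Voom without weights gave -0.01 and 0.11 for Il18bp. Without mice 4, 5, 6 and 23, Il1r2 was at -0.16, Il1r1 at 0.00 and Il18 at 0.03. With the mouse number covariate, Il33 was at -0.13 between HFD groups and Il1rn at 0.06 in CR20-CTRL vs FED-CTRL. None of these was called in either direction. Of the 82 member values not printed, 110 of 1968 fits with a mouse left out and 33 of 732 other fits turned in sign, none called.

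Mouse numbers gave no clear pairing of tissues: deviations from group means correlated with median r of 0.0591, 0.039 and 0.0716, over 0.1 in 8, 3 and 11 of 24 mice. With the replicate block 26 tissue differences passed, as without. In TMM scaling over 72 libraries, Il18 (-0.14) and Il1rap (-0.86) between eWAT and pituitary turned and 3 differences newly passed. In FED-CTRL mice alone 25 differences passed by the exact permutation test. Between eWAT and pituitary, Il1a was lost there (1.19, adjusted p = 0.0549) and Il18bp turned to 0.08. Il1a, Il1b and Il1r2 in the eWAT rest on at most 48 counts per library, which limits the comparison of groups.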
